A study of Mus musculus with 2 samples.

Results

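Arl13b, Inpp5e, Tulp3, Gpr161, Evc, Evc2, Iqce, Efcab7 and Kif7 were examined in RNA sequencing of the mouse pituitary at embryonic day E12.5. These 9 genes, of 55401 in the deposited tables, were taken by name because their products set the makeup of the ciliary membrane, form the EvC zone above the base of the cilium, or organise its tip, and so tie the primary cilium to Hedgehog signalling. All 9 were found through their Ensembl identifiers, and all 9 reached the minimum of 1 FPKM in both libraries. FPKM counts sequenced fragments per length of exon and per library size, so levels can be set side by side between genes. That length joins all annotated exons of a gene, whichever of its transcripts is expressed, which limits such comparisons.

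The primary cilium is a single, immotile projection of the cell surface through which vertebrate cells read Hedgehog ligand. Without ligand, receptors inside the cilium keep cyclic AMP high, protein kinase A marks the Gli proteins, and these are cut into repressors. With ligand, Smo gathers in the cilium, binds the EvC complex, and Gli proteins collect at the tip and turn into activators. Sonic hedgehog from the oral ectoderm and ventral diencephalon patterns Rathke's pouch, the ectodermal fold that becomes the anterior pituitary.

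The design had 1 library of total pituitary RNA from wild-type embryos and 1 from Dyrk2-/- embryos, labelled as a Dyrk2 knockout, both at E12.5. Dyrk2 is a protein kinase, and the title of the series asks what primary cilia do for cell types and vessels of this organ. The sources used here do not give the strain, the form of the deleted allele, the sex of the embryos or how many were pooled. Expression of Pitx1, a defining factor of the pouch, at 250 FPKM in the wild-type and 227 FPKM in the knockout library matched the labelled tissue, and all 13 pouch markers listed were above 1 FPKM.

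Because each genotype is 1 library, the differences lack any replicate check and none was tested. The 95% intervals given come from the fragments behind each value, so they cover counting error and leave out the spread from embryo to embryo or dissection to dissection. The libraries held 20046180 and 20115007 counted fragments. Dyrk2 itself measured 11.5 FPKM in the wild-type and 1.93 FPKM in the knockout library, which leaves 16.8% of the wild-type level (95% interval 14.6% to 19.2%). Xist, expressed from the inactive X chromosome, measured 74.98 and 14.76 FPKM and the Y-linked gene Ddx3y 5.83 and 14.95 FPKM, so the libraries also differ in the mix of sexes, and sex and genotype cannot be told apart.

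The 9 transcripts stood close to their wild-type level in the knockout library. None of the 9 was 1.5-fold higher or lower, a size reached by 6.64% of the 14000 genes that reached 1 FPKM in either library. This comparison of sizes uses log2 ratios of knockout over wild type after 0.5 FPKM was added to both values. The log2 ratios of the 9 genes ran from -0.29 for Inpp5e to 0.18 for Gpr161, with a median of -0.02 beside -0.02 for all 14000 genes. Inpp5e alone was at least 1.2-fold lower, a size reached downward by 14.6% of all genes, and no member was at least 1.2-fold higher, against 7.27% of all genes (21.9% in either direction). Summed over the 9 genes, the level was 68.6 FPKM in the wild-type and 66.0 FPKM in the knockout library.

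**Figure D1:**
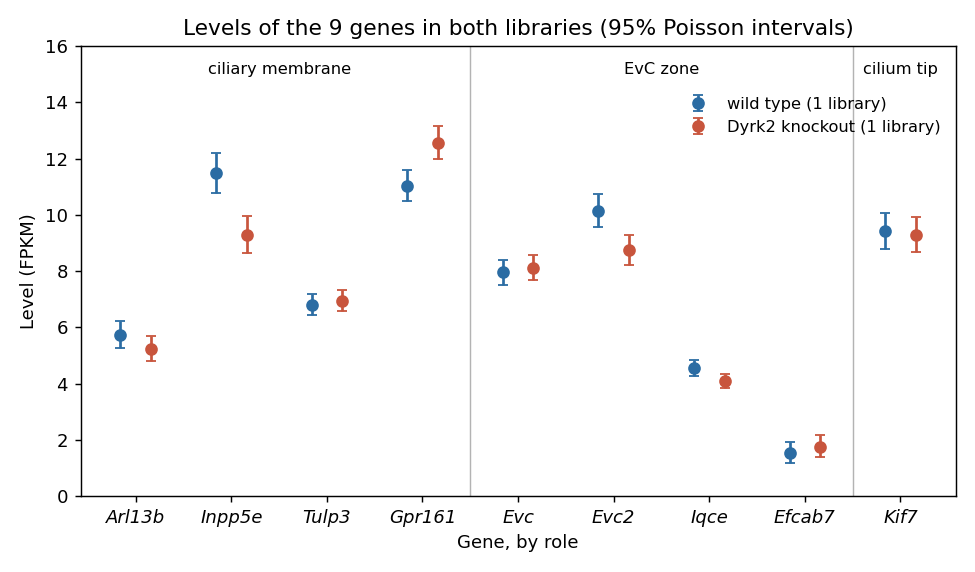
Level in FPKM (vertical axis) of each of the 9 genes (horizontal axis, grouped by role) in the wild-type and the Dyrk2 knockout library, as points with 95% Poisson intervals of counting error. Inpp5e and Evc2 sit lower in the knockout library and Gpr161 higher, and Efcab7 is the lowest gene in both.

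The stretches upstream of Evc and Evc2 are shown because these genes lie head to head and their ratios of knockout to wild type differed. Both are on chromosome 5 in GRCm38: Evc on the minus strand from 37289098 to 37336894 and Evc2 on the plus strand from 37338499 to 37425055, with 1605 bases between their 5′ ends. Bases upstream of each gene, from the RefSeq promoter table (GRCm38.p6), are shown 5′ to 3′ on the strand of the gene. Each stretch holds at most the first 250 bases of the RefSeq promoter and is cut where the annotated gene begins. The Evc stretch is chr5:37336895-37337131 on the minus strand and reaches the annotated gene. The Evc2 stretch is chr5:37338228-37338477 on the plus strand and stops short of the annotated start at 37338499. Capitals mark the longest run the stretches share, which reads in opposite directions on the strands of the 2 genes.
Evc: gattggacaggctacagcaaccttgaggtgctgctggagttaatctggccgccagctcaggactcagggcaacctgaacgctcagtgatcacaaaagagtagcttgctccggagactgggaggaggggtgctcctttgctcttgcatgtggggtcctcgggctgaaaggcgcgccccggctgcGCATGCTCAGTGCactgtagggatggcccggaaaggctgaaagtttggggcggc
Evc2: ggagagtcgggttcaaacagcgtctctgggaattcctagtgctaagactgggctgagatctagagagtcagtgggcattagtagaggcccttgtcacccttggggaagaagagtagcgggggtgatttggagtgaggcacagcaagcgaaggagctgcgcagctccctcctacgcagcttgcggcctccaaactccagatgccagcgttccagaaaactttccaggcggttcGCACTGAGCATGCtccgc
The shared run has 13 bases. It ends 41 bases before the printed Evc stretch ends and 5 bases before the printed Evc2 stretch ends.

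Among the genes of the ciliary membrane, Inpp5e was lower and Gpr161 higher in the knockout library, while Tulp3 and Arl13b were not separated from their wild-type level by counting error. Arl13b (chromosome 16, 62793685 to 62847040, minus strand) encodes a lipid-anchored small GTPase of the ciliary membrane that activates Arl3 and helps to hold Inpp5e there. The wild-type library held it at 5.74 FPKM, with a 95% Poisson interval of 5.28 to 6.22, and the knockout library at 5.23 FPKM (4.79 to 5.69). The intervals overlap, and the ratio of knockout to wild type was 0.911 (95% Clopper-Pearson interval 0.809 to 1.03).

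Inpp5e (chromosome 2, 26396249 to 26409203, minus strand) encodes the phosphoinositide phosphatase that strips a phosphate from membrane lipids of the cilium and thereby limits how much Tulp3 and its cargo enter. Its levels were 11.5 FPKM (10.8 to 12.2) without and 9.28 FPKM (8.65 to 9.95) with the deletion of Dyrk2, from 989 and 803 fragments. The intervals do not overlap, and the knockout value was 1.24-fold lower (1.12 to 1.36). Of all genes above the minimum, 19.2% had a log2 ratio at least as far from 0. Inpp5e shares 874 bases of exon, 20.3% of its exon length, with Pmpca on the opposite strand, which encodes a mitochondrial peptidase subunit and measured 29.5 and 31.3 FPKM. The sources used here do not say how fragments from the shared bases were assigned, and their part in the Inpp5e value was not tested.

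Tulp3 (chromosome 6, 128321161 to 128355851, minus strand) encodes a tubby-like protein that bridges membrane phosphoinositides and the retrograde transport complex IFT-A and carries Gpr161 and other receptors into the cilium. It measured 6.79 FPKM (6.42 to 7.18) and 6.94 FPKM (6.57 to 7.33) in the wild-type and knockout libraries. The intervals overlap over most of their width, and the ratio was 1.02 (0.945 to 1.10).

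Gpr161 (chromosome 1, 165295789 to 165326745, plus strand) encodes an orphan receptor that raises cyclic AMP in the cilium and restrains Hedgehog signalling. Its level was 11.04 FPKM (10.50 to 11.6) in the wild-type and 12.55 FPKM (11.97 to 13.2) in the knockout library, which rest on 1541 and 1758 fragments. These intervals are also separate, and the knockout value was 1.14-fold higher (1.06 to 1.22), with 35.4% of all genes at least as far from a log2 ratio of 0. Within the summed level of the 4 membrane genes, Gpr161 made up 31.5% in the wild-type and 36.9% in the knockout library, and Inpp5e 32.7% and 27.3%.

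In the EvC zone, Evc2 and Iqce were lower in the knockout library, and Evc and Efcab7 were not separated from their wild-type level. Evc and Evc2 encode partner proteins of the ciliary membrane that bind active Smo and carry its signal onward. In people, loss of either causes Ellis-van Creveld syndrome, a disorder of skeleton, teeth and heart. Evc measured 7.95 FPKM (7.51 to 8.41) and 8.11 FPKM (7.67 to 8.57) in the wild-type and knockout libraries, a ratio of 1.02 (0.942 to 1.10). Evc2 measured 10.1 FPKM (9.57 to 10.7) and 8.74 FPKM (8.21 to 9.29), or 1.16-fold lower (1.07 to 1.26), from 1186 and 1026 fragments. The intervals of Evc2 are separate, whereas those of Evc overlap over most of their width.

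Iqce and Efcab7 encode the proteins that tether the Evc and Evc2 pair to its zone near the base of the cilium. Iqce (chromosome 5, 140661827 to 140702378, minus strand) measured 4.55 FPKM (4.29 to 4.83) and 4.08 FPKM (3.83 to 4.34). It was 1.12-fold lower (1.02 to 1.22), and with a 99% interval its ratio no longer lay wholly below 1. Efcab7 (chromosome 4, 99829198 to 99912788, plus strand) was the least expressed of the 9 genes, at 1.52 FPKM (1.19 to 1.93) and 1.76 FPKM (1.40 to 2.19). It rests on 69 and 80 fragments, and its ratio of 1.16 has an interval from 0.827 to 1.62, which is the widest of the 9 and includes both 1 and 1.5. Of the summed level of the 4 genes, Evc2 held 42.0% in the wild-type and 38.5% in the knockout library, Evc 32.9% and 35.7%, Iqce 18.8% and 18.0%, and Efcab7 6.29% and 7.76%.

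At the tip of the cilium, Kif7 was level. Kif7 (chromosome 7, 79698098 to 79715720, minus strand) encodes the kinesin that organises the tip, where Gli proteins and their partner Sufu gather, and it acts both for and against the pathway. It measured 9.41 FPKM (8.79 to 10.1) and 9.29 FPKM (8.68 to 9.93) in the wild-type and knockout libraries, a ratio of 0.987 (0.897 to 1.09). Kif7 shares 877 bases of exon with the antisense gene 9330171B17Rik, which was listed at 0 in both libraries. It also shares 51 bases with Ticrr, a replication gene on the other strand, at 4.64 and 5.57 FPKM.

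Read together by counting error, 3 of the 9 ratios lay below 1 with their whole interval (Inpp5e, Evc2 and Iqce), 1 lay above (Gpr161), and 5 included 1. Over all 14000 genes the intervals lay below 1 for 22.3% and above 1 for 17.7%, so 40.0% excluded 1, and the 4 of 9 among these genes are near that share. In these bulk samples, fewer cells with a given transcript and less of it per cell cannot be told apart.

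**Figure D2:**
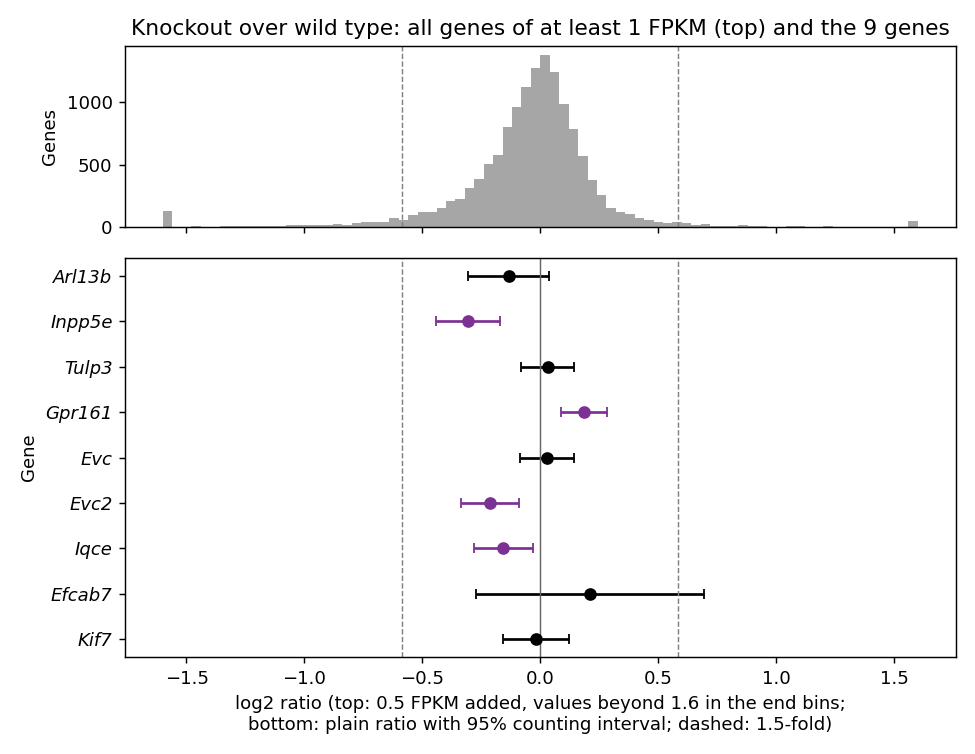
Log2 ratio of knockout over wild type (horizontal axis) for all 14000 genes as a histogram (top, number of genes) and for each of the 9 genes with its 95% counting interval (bottom; purple where the interval excludes a ratio of 1). All 9 points lie between the dashed lines at 1.5-fold, and the interval of Efcab7 is the widest.

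The order of the levels was similar in both libraries. In the wild-type library Inpp5e stood first, followed by Gpr161, Evc2 and Kif7, and each of these neighbours overlapped the next in its counting interval. Evc, Tulp3, Arl13b, Iqce and Efcab7 followed, each separated from its neighbour above by its interval. In the knockout library Gpr161 stood first, 1.35-fold above Kif7, with separate intervals. Kif7, Inpp5e, Evc2 and Evc came next and overlapped neighbour by neighbour, and the last 5 places were the same as in the wild type. Among the 14000 genes, 63.3% had a lower level than Inpp5e and 10.1% a lower level than Efcab7 in the wild-type library, so these are genes of middling to low expression.

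Ratios of 2 genes within a library do not depend on how the library was scaled, and all 36 pairs of the 9 genes were compared in this way. The interval of the change in ratio between the libraries excluded 1 for 16 of the 36 pairs, counting error only. The pairs reuse the same 9 genes, so they are not independent, and no share over pairs of other genes was computed. Gpr161 took part in 7 of those 16 and Inpp5e in 5, while Arl13b and Efcab7 took part in 1 each. Arl13b and Efcab7 rest on the fewest fragments of the 9 genes, so these counts also depend on depth. The level of Inpp5e relative to Gpr161 was 1.04 in the wild-type and 0.739 in the knockout library, a change to 0.712 of the wild-type ratio (0.633 to 0.800). That of Gpr161 relative to Evc2 was 1.09 and 1.44, which is 1.32 times the wild-type ratio (1.18 to 1.47).

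Among the 6 pairs of membrane genes 4 intervals excluded 1, among the 6 pairs of EvC zone genes 2 did, and among the 16 pairs that join the groups 7 did. Efcab7, with 69 and 80 fragments, widens the intervals of its pairs, so these groups are not compared at like depth. Evc relative to Evc2 measured 0.784 in the wild-type and 0.928 in the knockout library, 1.18 times the wild-type ratio (1.05 to 1.33). Thus the head-to-head genes, whose upstream stretches are printed above, came nearer to equal levels in the knockout library. Iqce relative to Efcab7 measured 2.99 and 2.32, and the interval of that change (0.548 to 1.10) includes 1. Arl13b relative to Inpp5e went from 0.5004 to 0.564, with an interval of the change (0.967 to 1.31) that also includes 1. Inpp5e relative to Tulp3, whose entry it limits, went from 1.69 to 1.34, a change to 0.792 of the wild-type ratio (0.700 to 0.896). Evc relative to Iqce measured 1.75 and 1.99, or 1.14 times the wild-type ratio (1.01 to 1.28). Gpr161 and its carrier Tulp3 stood at a Tulp3 to Gpr161 ratio of 0.615 and 0.553, a change to 0.899 of the wild-type ratio (0.809 to 0.998).

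**Figure D3:**
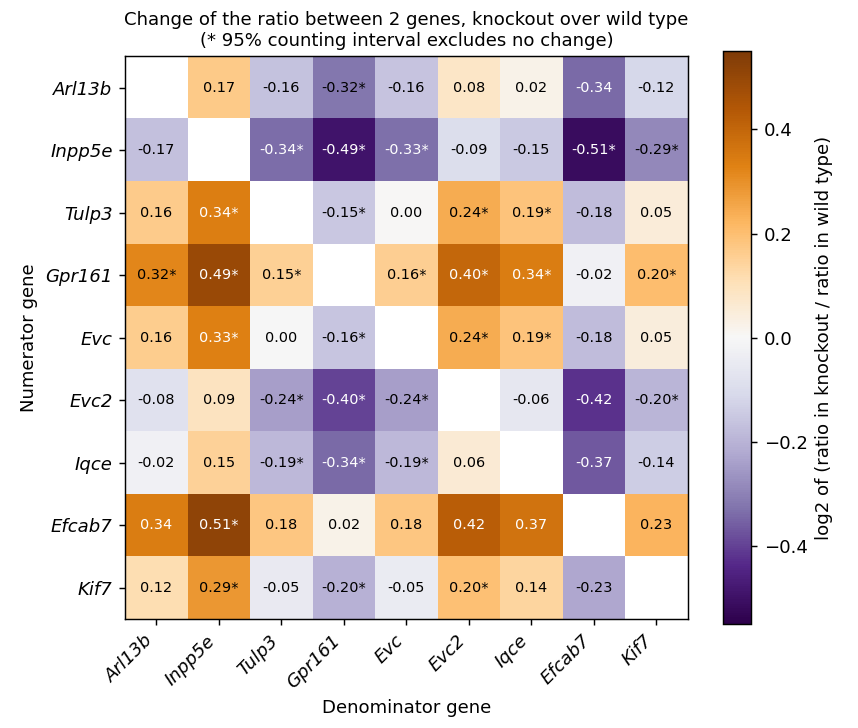
Change in the ratio of 2 genes between the libraries, as the log2 of the knockout ratio over the wild-type ratio, for each numerator gene (vertical axis) and denominator gene (horizontal axis). Asterisks mark the 16 of 36 pairs whose 95% counting interval excludes no change; the row of Gpr161 is above 0 against every gene except Efcab7, and that of Inpp5e is below 0 throughout.

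Genes that handle the lipid-anchored cargo of the ciliary membrane also stayed within 1.5-fold where they were above 1 FPKM. Of 17 listed, 15 were above 1 FPKM, none was 1.5-fold higher or lower (6.64% of all genes), and the median log2 ratio was 0.00, with -0.02 over all genes. By counting error 4 of the 15 ratios lay above 1 and 4 below, beside 17.7% and 22.3% of all genes. Arl3, the GTPase that Arl13b activates to unload lipidated cargo such as Inpp5e, measured 31.9 and 34.7 FPKM in the wild-type and knockout libraries. Its ratio was 1.09 (1.02 to 1.17). Arl2bp, which binds the Arl2 and Arl3 GTPases, measured 52.1 and 52.9 FPKM. Unc119b, a carrier of myristoylated cargo, measured 25.8 and 28.1 FPKM, a ratio of 1.09 (1.03 to 1.15). Arl13a, the closest relative of Arl13b, was listed at 0 in both libraries.

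Enzymes of phosphoinositide turnover share the lipids that Inpp5e acts on. Of 14 listed, 13 were above 1 FPKM and all 13 lay within 1.5-fold. Of those, 11 had log2 ratios below 0 and 2 above, where 7512 and 6402 of all 14000 genes did. The median was -0.07, with -0.02 over all genes. By counting error 1 of the 13 ratios lay above 1 and 4 below, beside 17.7% and 22.3% of all genes. Pip5k1c, a kinase that makes the lipid Inpp5e removes, measured 27.5 and 26.1 FPKM. Pi4kb, which supplies its precursor, measured 16.6 and 16.1 FPKM, and Aurka, a mitotic kinase that also acts in cilium disassembly, 24.3 and 28.2 FPKM. Related phosphatases chosen for mention after their values were seen were lower. Inpp5b measured 6.91 and 5.25 FPKM, which is 1.32-fold lower (1.17 to 1.48). Inpp5j, the list's gene below 1 FPKM, measured 0.68 and 0.26 FPKM from 69 and 27 fragments, 2.62-fold lower (1.62 to 4.16), so without the minimum 1 gene of the list lay beyond 1.5-fold.

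The relatives and partners of Tulp3 lay within 1.5-fold where they were above 1 FPKM. Of the other 4 tubby genes, 3 were above 1 FPKM and none reached 1.5-fold with 0.5 FPKM added. Tub, which can also carry receptors into cilia, in neurons above all, measured 3.54 and 5.07 FPKM, 1.43-fold higher in the knockout library (1.29 to 1.59). Tulp4 measured 8.05 and 7.63 FPKM and Tulp1 1.12 and 0.97 FPKM. All 6 genes of the IFT-A complex were within 1.5-fold, a size reached by 6.64% of all genes. Their log2 ratios ran from -0.31 to 0.14, with a median of -0.07. By counting error 1 of the 6 ratios lay above 1 and 2 below, beside 17.7% and 22.3% of all genes. The most abundant were Ift43 at 17.4 and 16.6 FPKM, Ift140 at 8.82 and 8.36 FPKM, and Wdr35 at 7.90 and 8.17 FPKM.

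Around Gpr161, the genes of receptor signalling and cyclic AMP went both ways, mostly by small amounts. Of 24 matched receptor and cyclic AMP genes, 16 were above 1 FPKM, none was 1.5-fold higher, 1 was that much lower, and the median was -0.05. By counting error 3 of the 16 ratios lay above 1 and 6 below, beside 17.7% and 22.3% of all genes. Gnas, the stimulatory G protein subunit, measured 201 and 194 FPKM. With 45863 and 44362 fragments, its interval (0.951 to 0.977) excludes 1 at a ratio of only 0.964. Prkar1a and Prkaca, the regulatory and catalytic subunits of protein kinase A, measured 121 and 114 FPKM and 54.4 and 57.2 FPKM. Adcy5, an adenylyl cyclase found in the cilia of some cell types, stood at 7.17 and 2.53 FPKM, 2.83-fold lower in the knockout library (2.51 to 3.20). Grk3, a kinase of activated receptors, was 1.45-fold lower (1.30 to 1.62) and Adcy6, another cyclase, 1.16-fold lower (1.10 to 1.22), both named after their values were seen. Other receptors known from neuronal cilia, such as Sstr3, Mchr1 and Htr6, were below 1 FPKM in both libraries, at 0.22, 0.11 and 0.23 FPKM in the wild-type library.

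For Kif7, the relatives and partners listed were 10 genes, 9 of them above 1 FPKM. The only one beyond 1.5-fold was Dyrk2, the deleted gene, which stands in that list as a kinase linked to the pathway. Ppp2r1a, a phosphatase scaffold, measured 111 and 117 FPKM, Dlg5, a scaffold that binds Kif7, 29.1 and 29.5 FPKM, and Kif4, a mitotic kinesin of the same family, 15.3 and 17.5 FPKM.

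The transcripts of the ciliary members, all within 1.5-fold, stood beside lower transcripts of Hedgehog targets. Of 13 target genes listed, 11 were above 1 FPKM, 7 lay 1.5-fold or more below the wild type and 1 as far above it, where 4.57% and 2.07% of all genes did. The median log2 ratio of the targets was -0.997, and that of the 16 measured genes that make, receive or relay the signal was 0.05. Of these 16, 13 had log2 ratios above 0, where 6402 of all 14000 genes did. Among the 16, 2 were at least 1.5-fold higher and none that much lower. These were the co-receptor genes Boc, at 2.19 and 3.99 FPKM, and Gas1, at 14.5 and 24.1 FPKM. Gli2 and Gli3, whose products gather at the tip with Kif7, were 1.55-fold (1.40 to 1.72) and 1.51-fold higher (1.43 to 1.599) as plain ratios, and were named after their values were seen. Gli1, the standard readout of the pathway, stood at 28.42 and 15.53 FPKM, 1.83-fold lower without Dyrk2 (1.72 to 1.95). Smo, which the EvC complex binds, measured 50.5 and 53.7 FPKM, a ratio of 1.06 (1.03 to 1.10). The target list was composed with its earlier results in these libraries known, so its direction is no independent evidence.

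**Figure D4:**
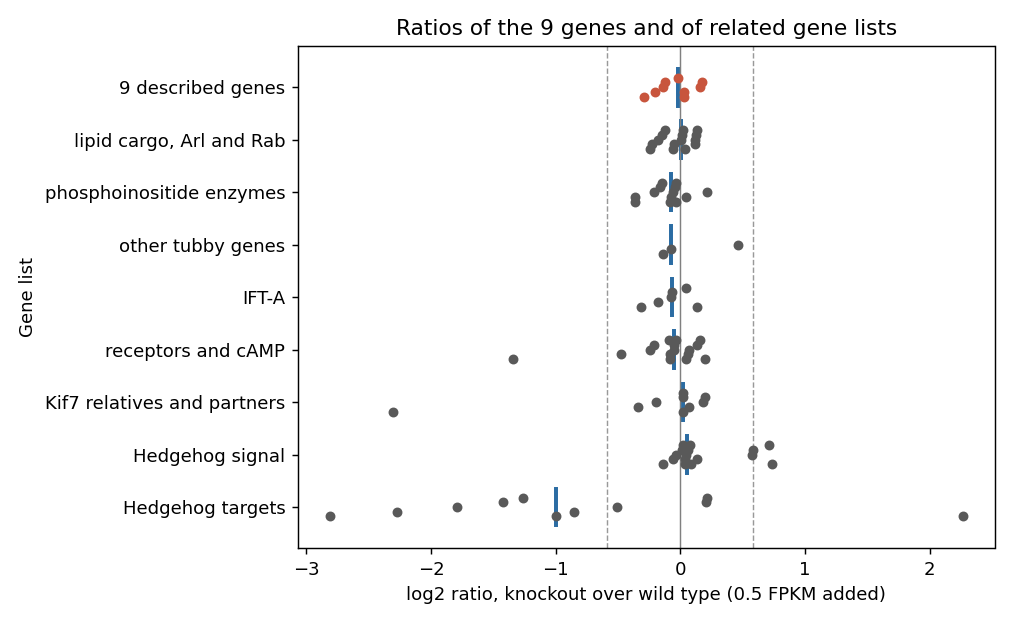
Log2 ratio of knockout over wild type with 0.5 FPKM added (horizontal axis) for genes of at least 1 FPKM in each list (vertical axis); points are genes and blue bars are list medians. The 9 genes and 7 of the related lists have medians from -0.07 to 0.05, while the Hedgehog targets have a median of -0.997, and the lone low points outside that list are Adcy5 and Dyrk2.

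Markers of cell types that a dissected pituitary can hold moved between the libraries as well. Pericyte and smooth muscle markers summed to 145 FPKM in the wild-type and 91.2 FPKM in the knockout library. Of 12 listed, 9 were above 1 FPKM, and all 9 had log2 ratios below 0, where 7512 of all 14000 genes did. Of the 9, 4 were 1.5-fold or more lower, beside 4.57% of all genes, whereas Notch3, the most abundant, was level at 48.1 and 48.0 FPKM. Of the 3 below 1 FPKM, Myh11 and Cnn1 were lower and Des was higher, at 0.54 and 0.85 FPKM. The 18 mesenchyme markers summed to 293 and 230 FPKM, with 6 lower and 5 higher by 1.5-fold or more, beside 4.57% and 2.07% of all genes. Among the lower ones Tcf21 measured 1.61 and 0 FPKM, and among the higher ones Alx1 measured 0.18 and 4.29 FPKM. Hormone and secretory markers summed to 367 and 75.8 FPKM, which mostly follows Scg2 (188.5 and 33.7 FPKM) and Chga (94.9 and 10.8 FPKM). Of the 8 above 1 FPKM, 7 were 1.5-fold or more lower, beside 4.57% of all genes. Pomc was level at 8.67 and 8.71 FPKM. Gh, Prl, Lhb and Pou1f1 were at 0 in both libraries, and Tshb was at 0.2 FPKM in the wild-type and 0 in the knockout library. The 13 pouch markers summed to 1033 and 968 FPKM. Erythroid markers summed to 2333 and 1793 FPKM and endothelial markers to 142 and 159 FPKM. Neuronal markers summed to 109 and 98.2 FPKM, which follows Nefl (49.99 and 34.0 FPKM) and Nefm (16.8 and 9.19 FPKM). In contrast, 7 of the 9 neuronal markers above 1 FPKM had log2 ratios above 0, where 6402 of all 14000 genes did. The median log2 ratio of the neuronal markers was 0.26. Infundibular, cartilage and macrophage markers summed to 147 and 140, 181 and 157, and 24.6 and 23.6 FPKM. The cartilage gene Matn1 was at 0 in the knockout library, but it had only 4 fragments (0.1 FPKM) in the wild-type library. The interval of its ratio (0 to 1.51) includes 1. Markers of multiciliated cells, whose motile cilia use other genes, summed to 7.97 and 7.04 FPKM, with Mcidas at 0 in both. The part of these differences in the values of Inpp5e, Evc2, Iqce and Gpr161 was not tested.

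The promoter windows that RefSeq gives for 7 of the 9 genes were searched for short motifs. There were 9 windows of 300 bases, from 250 before to 50 after a start. Iqce and Efcab7 had none in the table. On both strands, none of the 9 windows held the Gli core GACCACCCA, present in 0.253% of all 32851 windows, the TATA box TATAAA (13.6%), the E-box CACGTG (7.15%), the Nrf1 core GCGCATGCG (1.75%) or the Rfx X-box (0.691%). The CCAAT box CCAAT was in 6 of 9 windows, of Arl13b, Evc, Gpr161, Inpp5e and Tulp3, beside 37.4% of all windows. By gene this is 5 of 7. The windows of Inpp5e overlap each other and both hold the box, so the windows are not independent, and Gpr161 also has a window without it. The windows of 6 genes had a GC content from 56.3% to 74.0%, above the median of 52.7%, and those of Gpr161, at 44.0% and 45.7%, were below it. These matches describe letters only and show no binding.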

How the data were processed

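Total RNA of mouse pituitaries was sequenced from polyA-selected, stranded libraries, per the labels' protocols, 1 for each genotype. The authors deposited FPKM to 2 decimals with the exon length of each gene as other values, per the file headers. The submitters' processing notes list the tools HISAT2 2.0.1 and cutadapt 1.9.1 and the build GRCm38. The sources used here do not give the counting tool, its use of strand or the annotation release.

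The sum of FPKM times exon length was equal in both tables, so values are relative to the fragments counted in genes. All 1512 wild-type and 1372 knockout values checked were whole fragments within 0.1 at the totals given, and these fragments gave exact 95% Poisson and Clopper-Pearson intervals. Intervals for pairs of genes are conditional intervals of the odds ratio. No count model was used. Symbols and coordinates are from GENCODE M21 by identifier (55141 of 55401 matched). Its exon lengths equal the deposited ones for all members except Efcab7 (2252 and 2259 bases). Genes needed 1 FPKM in at least 1 library, and log2 ratios add 0.5 FPKM, which understates the change of low genes.

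The members, lists and rules were chosen with earlier results of these data known. From each related list the text names the 3 most abundant genes and up to 3 with the largest log2 ratio beyond 1.5-fold. Exceptions are Arl13a, Inpp5b, Inpp5j, Grk3, Adcy6, Sstr3, Mchr1, Htr6, Gli2, Gli3, Nefm, Pomc, Myh11, Cnn1, Des, Alx1 and the marker genes at 0, named after their values were seen. Scg2, Chga, Notch3 and Nefl are among the most abundant genes of their marker lists. Some genes the rule picks from the Hedgehog lists are given as counts only. No genes of like pattern were sought, since over 2 libraries a pattern is a single ratio. Gpr175 and 2 marker symbols had no match. Steps were tested on simulated data. Alternatives were pseudocounts of 0.1 and 2, filters of 5 FPKM and none, 3 scalings and 99% intervals. Calculations used Python 3.11.15, numpy 2.4.6, pandas 2.3.3 and scipy 1.17.1.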

Additional observations from a re-analysis of the deposited data

How the results depend on the processing

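No paired analysis was possible because each genotype had a single library, and leaving out a library would leave no comparison. The alternatives moved the 9 members little. All 45 values of single members under other pseudocounts and scalings stayed within their counting intervals, and no member whose interval excluded 1 changed direction. The median of the 9 log2 ratios ranged from -0.02 to 0.01, turning above 0 with the trimmed-mean scaling (0.010), which multiplied the knockout values by 1.02. No member reached 1.5-fold under any alternative run. With a pseudocount of 2 FPKM the number at least 1.2-fold lower was 0 in place of 1. With 99% intervals 2 members in place of 3 lay below 1, without Iqce, and 1 above. The number of Hedgehog signal genes at least 1.5-fold higher was 2, and it became 4 with a pseudocount of 0.1 FPKM or with the trimmed-mean or upper-quartile scaling, and 1 with a pseudocount of 2 FPKM or a filter of 5 FPKM. Without a filter the number of phosphoinositide enzymes at least 1.5-fold lower was 1 in place of 0 (Inpp5j). The median of the other tubby genes turned from -0.07 to 0.195 with a filter of 5 FPKM. The median of the Hedgehog targets, -0.997, ranged from -1.13 with that filter to -0.85 with none. With the filter of 5 FPKM 6 targets in place of 7 were at least 1.5-fold lower, and 0 in place of 1 higher. Depth limits Efcab7 most.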

Other observations

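The run of 13 bases that the stretches upstream of Evc and Evc2 share was noticed after the sequences were compared. It reads GCATGCTCAGTGC on the strand of Evc, at chr5:37336936-37336948, and GCACTGAGCATGC on the strand of Evc2, at chr5:37338460-37338472 (GRCm38.p6), so both copies read alike on the plus strand of the chromosome. Of all 32851 RefSeq promoter windows of 300 bases, 10 windows of 10 genes hold it on either strand (0.0304%). These 10 include Evc and Evc2 themselves and Prkar1a, the gene of a protein kinase A subunit, at 121 and 114 FPKM. The longest run that the stretches share when both are read on the strand of their own gene has 9 bases. What binds the run, if anything, was not analysed here.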
